A study of Sus scrofa with 6 samples.

Results

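The probes described here are those of the miR-19 seed family and of the seed family of miR-92, miR-25 and miR-363 on a pig miRNA microarray, taken by their names: miR-19a, miR-19b, miR-92a, miR-92b-3p, miR-92b-5p and miR-363. They are 6 of the 322 pig miRNA probes of the array, and miR-25 was not analysed here. Left atrial (LA) RNA came from 3 paced and 3 sham pigs, each measured on an array of its own. The paced animals, named PAF group in the labels, had brief self-terminating paroxysms of atrial fibrillation (AF) induced by burst pacing of the right atrium through a catheter, and their LA was harvested on the following day. The sham-control animals had no burst pacing. The methods describe esmolol, a beta blocker, before pacing, and do not say whether the sham animals received it. The pigs were Large white animals aged 3 months according to the methods, while the labels call them neonatal piglets. The question was whether short AF episodes change the level of these miRNAs in the LA.

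A mature miRNA guides the silencing machinery to messenger RNAs mainly through its seed, the bases from position 2 to 8 counted from the 5′ end. miRNAs with the same seed are grouped in a family because they can bind largely the same targets. Most members of these 2 families are made from polycistronic transcripts, the cluster from miR-17 to miR-92a and its relative from miR-106a to miR-363, so that miRNAs of unlike seed are cut from a shared precursor. miR-19, together with miR-18, is known for repressing matrix proteins in the ageing heart. miR-92a is known as a brake on blood vessel growth in endothelial cells, and miR-25 as a repressor of the calcium pump SERCA2a in heart muscle. The array measures mature miRNA in the whole tissue, and fewer cells of a type cannot be told apart from less miRNA per cell.

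The mature sequences, as the array files give them for the target of each probe, are shown because they define the families. The seed is in capitals. The 2 probes with the miR-19 seed GUGCAAA were
miR-19a: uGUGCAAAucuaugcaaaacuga
miR-19b: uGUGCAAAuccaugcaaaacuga
The members with the seed AUUGCAC were
miR-92a: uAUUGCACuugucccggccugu
miR-92b-3p: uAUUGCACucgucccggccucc
miR-363: aAUUGCACgguauccaucuguaa
The opposite arm of the miR-92b hairpin has another seed, GGGACGG, which no other probe of the array shares
miR-92b-5p: aGGGACGGgacgcggugcaguguu

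Positions in the following are counted from 1 at the 5′ end. miR-19a and miR-19b differ at a single base of 23, U11C, which lies outside the seed. miR-92a and miR-92b-3p are the same at 19 of 22 bases and differ by U10C, G21C and U22C. miR-363 shares the seed with miR-92a but only 10 of 22 bases in all, so that the family likeness of these probes lies mainly at the 5′ end. A further probe of the array has the seed AUUGCAC, that of miR-32 (uAUUGCACauuacuaaguugc). The share of G and C was 34.8% and 39.1% in miR-19a and miR-19b, 39.1% in miR-363, 54.5% in miR-92a, 63.6% in miR-92b-3p and 66.7% in miR-92b-5p.

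In the RefSeq gene table of the Sscrofa11.1 assembly, the genes of these miRNAs form 2 groups of neighbours. MIR17, MIR18A, MIR19A, MIR20A, MIR19B-1 and MIR92A-1 follow each other in that order within 10 kb. MIR363-1, MIR92A-2, MIR19B-2, MIR20B-1, MIR18B and MIR106A do so in the other group. miR-19b and miR-92a are thus encoded in both groups, miR-19a only in the former and miR-363 only in the latter, and the probes of miR-19b and miR-92a read the product of both. MIR92B had no other miRNA gene within 10 kb.

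The array held 9 repeat spots of each probe. Background was read from 786 empty spots per array, whose median was from 64.7 to 214 scanner units in the sham arrays and from 242.5 to 399 units in the paced arrays, so that every paced array had the higher background. A probe counts as well above background where its median repeat spot lay over 3 SD of the empty spots higher than their median, and is then called measured on that array. This held for 104 of the 322 probes on all 6 arrays. Levels are normalized log2 intensities, from scanner values corrected with normexp and an offset of 50 and quantile-normalized between arrays. The offset compresses differences of dim probes, and the level of a probe is not read as higher or lower than that of another. Only miR-363 and its neighbours are set against each other, as the log2 difference on the same array. There a change of the dim miR-363 is compressed more than that of a bright neighbour.

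Of the 6 members, miR-19b, miR-92a and miR-92b-3p were well above background on all 6 arrays. miR-363 was so on 2 sham arrays and 1 paced array, miR-19a in 1 sham animal and no paced animal, and miR-92b-5p on no array. Against the 15 nearest empty spots, the arrays that measured miR-363 were 3 sham and 2 paced ones, and those that measured miR-19a 1 of each group. The coefficient of variation over the repeat spots of an array had a median of 7.26% for miR-92a, 7.74% for miR-92b-3p, 8.23% for miR-19b, 8.67% for miR-19a and 8.79% for miR-92b-5p. For miR-363 it was 10.3%, with the highest value, 18.02%, in paced replicate 3.

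In the comparison of paced and sham animals with limma over all 322 probes, 0 probes (0%) passed an adjusted p of 0.05, and so did 0 of the 6 members. At an unadjusted p of 0.05 or less, the threshold of the methods, limma gave 34 probes (10.6%) and the methods' t-test 39. Of these 34, 23 (7.14% of all probes) were lower in paced animals. Among the members the count was 1 of 6, miR-363, which was lower. The median difference, paced minus sham, was -0.03 on the log2 scale over the 6 members and 0.00 over all probes.

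miR-19b was measured on every array. Its scanner signal above the empty-spot median was 2150, 1293 and 1176 units in sham replicates 1, 2 and 3 and 709, 1694 and 1027 units in paced replicates 1, 2 and 3. On the normalized log2 scale the sham animals were at 10.63, 10.53 and 10.40 and the paced animals at 10.25, 10.70 and 10.31. Paced replicate 2 had the highest value of all and the other paced animals had the lowest, so that the groups overlapped. The group means were 10.52 ± 0.11 for sham and 10.42 ± 0.25 for paced (SD, n = 3 in each group). The paced mean thus lay -0.10 from the sham mean (SE 0.13, limma, adjusted p = 0.826). This difference had a 95% interval from -0.42 to 0.22, and was smaller than the SD of the paced group. Without paced replicate 2 it was -0.25 (SE 0.09, adjusted p = 0.327), past the unadjusted threshold.

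miR-19a, which differs from miR-19b by U11C, lay near the background. Its scanner signal was 1.05, 28.3 and 31.1 units above the empty-spot median in sham replicates 1, 2 and 3, and -68.7, 85.6 and 22.1 units for the paced replicates in the same order. Paced replicate 1 was thus below its own empty spots and paced replicate 2 the highest of the 6. Normalized, the values were 7.14, 7.26 and 7.14 in sham and 6.92, 7.29 and 7.30 in paced animals. The difference was -0.01 (SE 0.12, adjusted p = 0.980), between a sham mean of 7.18 ± 0.07 and a paced mean of 7.17 ± 0.21 (SD, n = 3 each). The level in paced animals is only bounded, since no paced array measured it, and no fold is given. The sign of the difference changed without sham replicate 2 (0.02) and without paced replicate 1 (0.12).

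miR-92a was measured on every array, with 4753, 3264 and 3241 units above the empty spots in the sham and 2554, 3504 and 3172 units in the paced animals. Normalized, sham replicates 1, 2 and 3 were at 11.77, 11.90 and 11.75 and paced replicates 1, 2 and 3 at 11.88, 11.65 and 11.74. The groups overlapped, with the highest value in sham replicate 2 and the lowest in paced replicate 2. The group means were 11.81 ± 0.08 for sham and 11.76 ± 0.12 for paced (SD, n = 3 each), which differ by -0.05 (SE 0.09, limma, adjusted p = 0.866). Its 95% interval, -0.25 to 0.16, corresponds to a ratio of paced to sham between 0.840 and 1.11. The sign is not settled, as it turned to 0.0024 with cyclic loess and to 0.0021 without paced replicate 2.

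miR-92b-3p, the arm with the family seed, had 1777, 1312 and 1338 units above the empty spots in the sham and 813, 1575 and 1384 units in the paced animals. After normalization sham replicates 1, 2 and 3 were at 10.22, 10.58 and 10.59 and paced replicates 1, 2 and 3 at 10.38, 10.57 and 10.60 on the log2 scale. Sham replicate 1 was the lowest and paced replicate 1 the next, while the other 4 animals were nearly equal. The difference of 0.06 (SE 0.12, adjusted p = 0.885) had a 95% interval from -0.24 to 0.35, the sham mean being 10.46 ± 0.21 and the paced mean 10.52 ± 0.12 (SD, n = 3 each). Without sham replicate 1 it was -0.07. The other arm, miR-92b-5p, had from -56.5 to -1.13 units relative to the empty-spot median and so lay below it on all 6 arrays. Its measured difference of 0.06 (SE 0.11, adjusted p = 0.875) is one between background values. After scaling to the detected probes it was 0.58 (adjusted p = 0.00596), and that of miR-19a 0.60 (adjusted p = 0.00521), where the median of all probes moved by 0.44. Both had the same SE there, 0.19, so these p-values do not use the spread of the single probe. Of the 2 arms of this hairpin, only the 3′ arm was well above background in these atria.

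**Figure D1:**
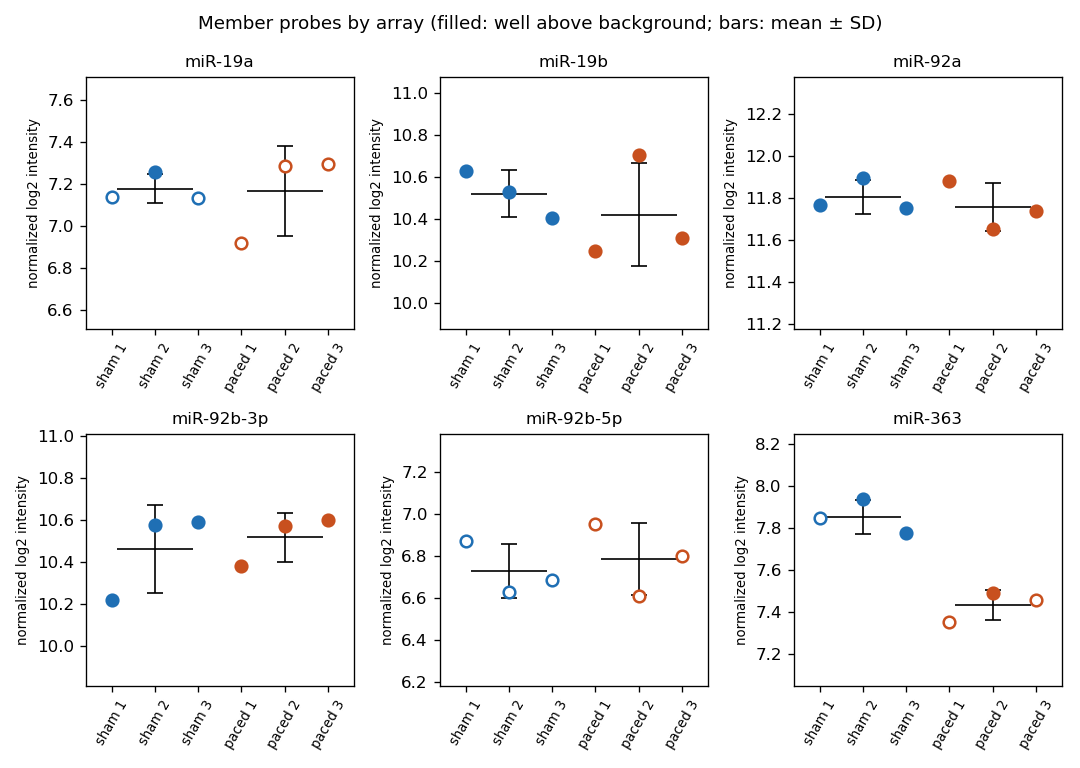
Normalized log2 intensity of each member probe (vertical axes, each spanning 1.2 log2 units) on the 3 sham (blue) and 3 paced (orange) arrays. Filled points are well above background, and black bars are the group mean ± SD. miR-363 is the member whose sham values (7.78 to 7.94) and paced values (7.36 to 7.49) did not overlap, while the groups overlapped for the other 5.

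miR-363 was the member with lower values in every paced animal. On the normalized log2 scale, sham replicates 1, 2 and 3 were at 7.85, 7.94 and 7.78 and paced replicates 1, 2 and 3 at 7.36, 7.49 and 7.46. All probes together gave 33 (10.2%) with each paced value below each sham value, and of the members 1 of 6. The difference of -0.42 (SE 0.08, limma, unadjusted p = 0.000965, adjusted p = 0.134) did not pass the adjusted threshold. Its 95% interval, before adjustment, was -0.60 to -0.24. Only 1 of the 3 paced arrays measured the probe, and no fold is given. With 1 animal left out the difference lay between -0.45 and -0.36, and the adjusted p between 0.0507, without paced replicate 1, and 0.582, without sham replicate 2.

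The separation of the groups depended on the scale. The median scanner signal of the miR-363 spots was 354, 168 and 212 units in sham replicates 1, 2 and 3 and 372, 360 and 322 units in paced replicates 1, 2 and 3. Above the empty-spot median of the same array it was 140, 103 and 95.01 units in sham and -26.8, 117 and 60.8 units in paced animals. On this scale paced replicate 2 lay above sham replicates 2 and 3, and paced replicate 1 lay below its own background. Above the nearest empty spots the signal was 137, 103 and 90.2 units in sham and -9.71, 99.95 and 74.3 units in paced animals, again with paced replicate 2 above sham replicate 3. The deposited processed values were 118, 132 and 107 in sham and 62.9, 78.6 and 78.9 in paced animals, without overlap. With each array scaled to the median of its detected probes, the difference was 0.07, while the median of all probes moved by 0.44, and without normalization it was -0.10 while that median moved by 0.27.

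**Figure D2:**
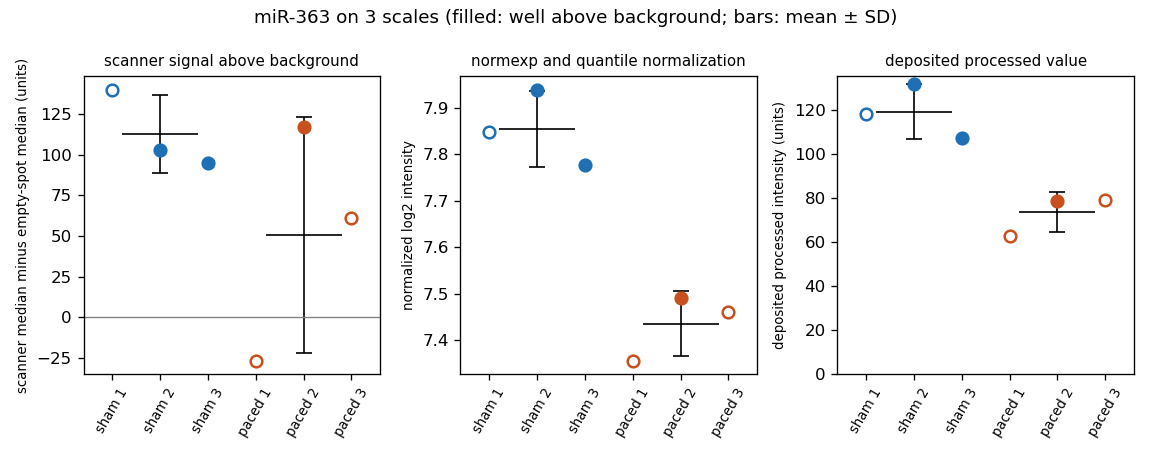
miR-363 in each animal as the scanner signal minus the empty-spot median (left, scanner units), as the normalized log2 intensity (middle) and as the deposited processed intensity (right, units). Filled points are well above background and black bars are the mean ± SD of 3 animals. The groups overlap on the left, where paced replicate 2 has 117 units, and do not overlap in the other panels.

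**Figure D3:**
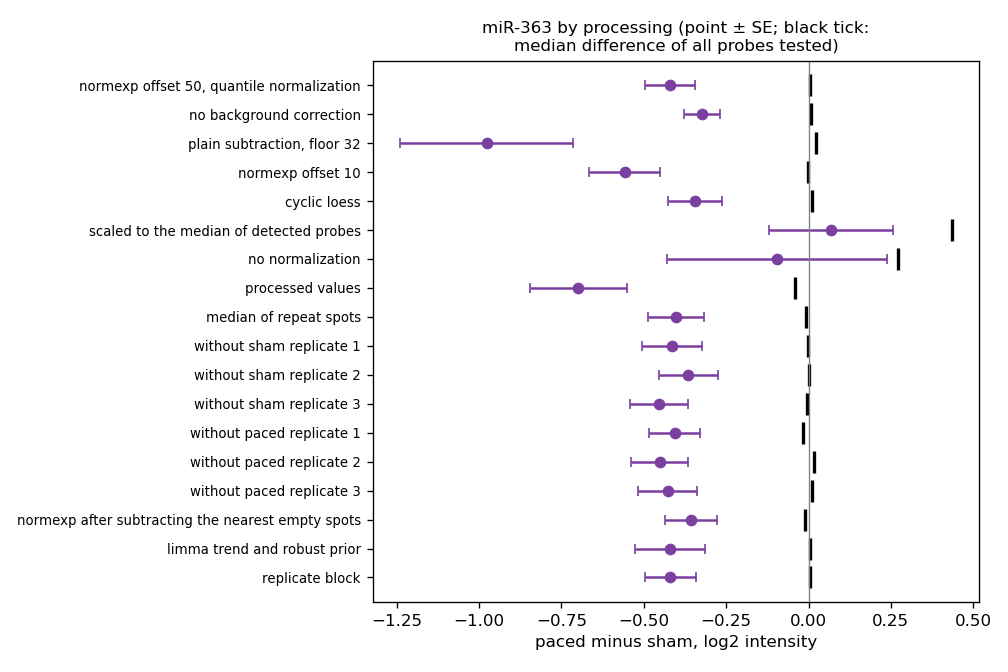
Difference of miR-363 between paced and sham animals (horizontal axis, log2 intensity) under the ways of processing that gave it a limma fit, as point ± SE, with the median difference of all probes tested as a black tick. The values run from -0.98 with plain subtraction of the background to 0.07 after scaling to the detected probes, where the tick stands at 0.44.

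miR-363 is encoded beside miR-92a and miR-19b, whose differences were -0.05 and -0.10. To ask whether they moved by unlike amounts, the log2 value of each neighbour was subtracted from that of miR-363 on the same array. Relative to miR-92a, miR-363 was at -3.92, -3.96 and -3.97 in sham and -4.53, -4.16 and -4.28 in paced replicates 1, 2 and 3, a difference between groups of -0.37. Relative to miR-19b this difference was -0.32, to miR-106a -0.40 and to miR-20b -0.50. For each of these 4 neighbours the paced values lay below the sham values without overlap (exact permutation test, two-sided, p = 0.1, the smallest p that 3 animals against 3 allow, and 0.125 after adjustment over the 5 neighbours). Relative to miR-18b the difference was -0.09 (exact permutation test, two-sided, p = 0.6, adjusted p = 0.6), with overlap. The 4 neighbours without overlap were measured on every array, whereas miR-18b, dim like miR-363, was measured on 2 sham and 0 paced arrays. The part of the signal level in this split was not tested. All these contrasts use the same miR-363 values and are not independent of each other. With cyclic loess in place of quantile normalization the differences relative to miR-19b, miR-92a, miR-20b and miR-106a were -0.22, -0.35, -0.42 and -0.43, and on the deposited processed values -0.54, -0.70, -0.75 and -0.74. Without normalization between arrays the differences relative to miR-19b, miR-92a, miR-20b and miR-106a were 0.26, 0.19, 0.06 and 0.03. Scaling to the detected probes shifts all probes of an array alike, and so repeats these values by construction. That miR-363 was lower was known before these contrasts were chosen, so they are a description.

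The other miRNAs of the related clusters were taken as a list. Of its 9 names, 7 had a probe of that name, and 4 of these, miR-17-5p, miR-20a, miR-20b and miR-106a, were well above background on all 6 arrays. None of the 7 passed the adjusted threshold, which no probe of the array did (0%). At the unadjusted threshold 3 of the 7 were lower in paced animals and 0 were higher, against 7.14% lower among all probes. The 3 were miR-17-3p, miR-18a and miR-18b, none of which was measured on every array. The median difference over the list was -0.03, against 0.00 over all probes.

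For miR-18a, the miR-18 member of the cluster that also holds miR-19a, the normalized values were 7.97, 7.77 and 7.72 in sham and 7.72, 7.45 and 7.23 in paced animals. Paced replicate 1 just overlapped sham replicate 3. The difference was -0.35 (SE 0.14, limma, adjusted p = 0.407), and 2 sham arrays and 1 paced array measured the probe above background. The 4 neighbours measured on every array had differences from -0.03 (miR-20a, SE 0.20) to 0.08 (miR-20b, SE 0.10). Every member or neighbour measured on all 6 arrays differed by at most 0.10. Of the 6 that were not, miR-363, miR-18a, miR-18b and miR-17-3p had differences from -0.42 to -0.28, miR-19a one of -0.01 and miR-92b-5p one of 0.06. The part of the low signal in this was not tested. miR-32, which shares the miR-92a seed but is encoded elsewhere, was at background on all 6 arrays, with a difference of -0.08 (SE 0.07, adjusted p = 0.739).

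**Figure D4:**
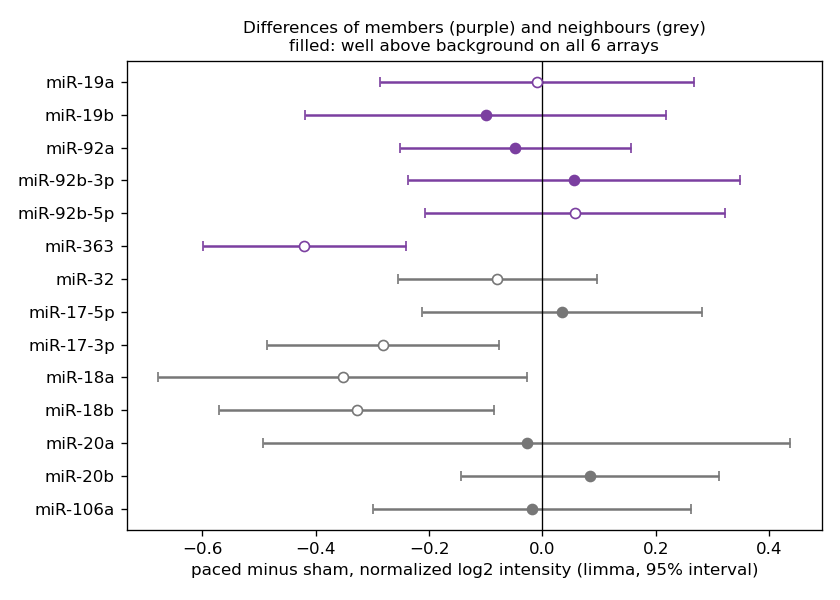
Difference between paced and sham animals (horizontal axis, normalized log2 intensity, point with 95% interval from limma) for the 6 members (purple) and for miR-32 and the cluster neighbours (grey). Filled points are probes well above background on all 6 arrays. Those lie between -0.10 and 0.08, and the intervals of miR-363, miR-17-3p, miR-18a and miR-18b, all open points, lie below 0 before adjustment.

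The members measured on every array, miR-19b, miR-92a and miR-92b-3p, did not follow a common pattern over the 6 arrays. Within the miR-19 family, Pearson's r between miR-19a and miR-19b over the 6 arrays was 0.51. Within the other family it was -0.21 between miR-92a and miR-92b-3p, 0.24 between miR-92a and miR-363 and -0.09 between miR-92b-3p and miR-363. Between miR-19b and miR-92a, which share their clusters, it was -0.46. Each value rests on 6 arrays that share their normalization, and is a description. miR-19a and miR-363 were not measured on every array, so the values with them partly compare background. Among the 103 other probes measured on every array, the patterns most like miR-92a were those of miR-423-5p (r = 0.942) and miR-26a (r = 0.923). For miR-92b-3p they were miR-191 (r = 0.957) and let-7e (r = 0.916), and for miR-19b they were miR-29c (r = 0.846) and miR-148b-3p (r = 0.828).

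Markers of cell types that the atrial tissue could hold in unequal amounts were set beside these values. The heart muscle list was present, with 5 of 7 probes measured on every array and a summed intensity of 60405 to 62926 in sham and 58097 to 68905 in paced animals. Most of this sum came from miR-133a-3p and miR-133b, which differed by 0.0041 and -0.0041. Quantile normalization holds the brightest probes of an array nearly equal, so the sum cannot show whether muscle content differed. miR-1 differed by 0.37 (SE 0.32) and miR-133a-5p by -0.34 (SE 0.16), neither past the unadjusted threshold. Of the erythroid list, whose cells are rich in miR-451, 1 of 3 probes passed the unadjusted threshold, lower in paced animals, against 7.14% lower among all probes. It was miR-486, at 8.47, 8.92 and 8.96 in sham and 7.88, 8.20 and 8.16 in paced animals, and differed by -0.70 (SE 0.16, limma, adjusted p = 0.134). The probe was measured on 3 sham and 2 paced arrays. The authors list miR-486 as reported in mouse skeletal muscle, so it is not a marker of erythroid cells alone. miR-451 differed by -0.37 (SE 0.20, adjusted p = 0.511) and miR-144 was at background on all 6. The summed erythroid intensity was 12198 to 17089 in sham and 8241 to 12293 in paced animals. Their part in the lower miR-363 values was not tested.

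The summed intensity of the smooth muscle list, led by miR-143-3p and miR-145-5p, was 19262 to 23007 in sham and 17153 to 19084 in paced animals, and 1 of its 4 probes, miR-143-3p, passed the unadjusted threshold, lower in paced animals, against 7.14% lower among all probes. Of the endothelial list, 1 of 2 probes passed it, higher in paced animals, against 11 probes (3.42%) higher among all. This was miR-126-5p, which no array measured above the limit, while miR-126-3p differed by -0.02 (SE 0.10). The leukocyte list had 7 of 8 names on the array, 2 of them measured on every array, and 0 past the unadjusted threshold, with a summed intensity of 1892 to 2038 in sham and 1711 to 2485 in paced animals. The 2 epithelial or liver miRNAs with a probe of the listed name, miR-122 and miR-205, were at background on all 6 arrays. miR-194, also listed, had no probe of that exact name. The miR-194a probe was measured on 2 sham arrays and 1 paced array. It was lower in paced animals by -0.27 (SE 0.09, limma, adjusted p = 0.357), past the unadjusted threshold. The miR-194b probes of both arms were at background on all 6 arrays.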

How the data were processed

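A service provider measured LA RNA of 3 paced and 3 sham pigs on Cy3 miRNA arrays of 1 colour, 1 for each animal. The authors deposited, for each array, the median intensity of every spot, linear, without background correction or normalization. They also deposited a processed intensity per probe, which by its values appears to be background-subtracted. The methods behind it are not given in the sources used here. It was used only as an alternative.

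The 3968 spots of an array hold 2898 miRNA spots and 1070 control spots. All were corrected with normexp (offset 50), control spots were left out, and the miRNA spots were quantile-normalized. The mean of the log2 values of the repeat spots was used. Groups were taken from the labels and compared with limma 3.58.1 (R 4.3.3) over all 322 probes, with Benjamini-Hochberg adjustment. The methods' own test is an unpaired t-test, run as an alternative. Where a probe was well above background on no array of a group, a bound was computed, and none gave a fold above 1. miR-363 was set against its neighbours by exact permutation over the 20 assignments. The number of arrays limits the precision. The steps were tested on simulated data, and a first form of this test, with more changed probes, failed because unchanged probes were called as well. The number of changed probes was then lowered, and false calls were limited only in sets without any change. In this looser form the changed probes, all taken from those measured on every array, were mostly recovered. Some unchanged probes were still called beside them, so that a call after quantile normalization can be false where other probes change. Recovery was not tested for probes not measured on every array, miR-363 among them.

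Described were all member probes, probes of the same seed, the cluster list, the cell type lists and, for each member measured on all arrays, the 2 probes of highest Pearson correlation. The members and lists were chosen with earlier results of these data known. Names of the lists without a probe of that exact name were not counted in the lists, and of these only the probes of miR-194 are given. Python 3.11.15 with matplotlib 3.10.9 drew the figures. The alternatives were other background corrections, other or no normalization, the processed values, the median of repeat spots, a filter on dim probes, other tests, the replicate number as a block and each animal left out. Subtraction of the nearest empty spots before normexp was added after seeing the data.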

Additional observations from a re-analysis of the deposited data

How the results depend on the processing

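Alternatives that changed only the test or added the replicate block repeat the reported difference by construction. The filter on dim probes does so for miR-19b. With these counted, miR-19b kept its direction under all 19 alternatives that gave it a value, and miR-363 under 17 of 18, the exception being scaling to the median of the detected probes (0.068). That scaling turned miR-19a to 0.60 and miR-92b-3p to -0.042, and gave 181 probes (176 higher, 5 lower) and 2 members, miR-19a and miR-92b-5p, at the unadjusted threshold and 171 probes, both of these members included, at the adjusted one (limma, adjusted p = 0.00521 for miR-19a and 0.00596 for miR-92b-5p). Every member had the same SE under that scaling, 0.19, so these p-values do not use each probe's own spread. miR-92b-5p, at background on all arrays, was at 0.58 there and at 1.13 on the processed values. Without normalization miR-19a was at 0.43 and miR-92b-3p at -0.21, with 15 probes (15 higher, 0 lower) and 0 members at the unadjusted threshold. The split of higher and lower probes was 11 to 23 as reported, 19 to 19 on the processed values and 19 to 17 with the nearest empty spots. miR-19a was at 0.00072 without background correction, 0.16 with plain subtraction and 0.032 with cyclic loess, and miR-92a at 0.0024 with cyclic loess and 0.00083 on the processed values. miR-363 relative to miR-19b, miR-92a, miR-20b and miR-106a was at 0.26, 0.19, 0.059 and 0.033 under either of the first 2 settings, which give the same values by construction. Relative to miR-18b it was at 0.070 on the processed values. The filter on dim probes left 126 probes, with miR-363 not among them, and 5 probes and 0 members at the unadjusted threshold. With each animal left out, the difference lay between -0.075 and 0.12 for miR-19a, -0.12 and 0.0021 for miR-92a, -0.070 and 0.13 for miR-92b-3p and -0.021 and 0.14 for miR-92b-5p. The counts lay between 19 (without sham replicate 2) and 67 probes (without paced replicate 1) and 1 and 2 members at the unadjusted threshold, and between 0 and 9 probes (9 without paced replicate 1) at the adjusted one. The causes of these changes were not tested.

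With the replicate block 33 probes reached the unadjusted threshold and 0 the adjusted one, and no member changed its side of it. The labels do not say that the numbers pair animals, and same-numbered arrays deviated together with r = 0.17, -0.014 and 0.21, with 4 of 6 arrays closest to their own number.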
